A study of Mus musculus with 18 samples.

Results

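The genes described here are the 4 adenosine receptors of the mouse and 5 enzymes that make or remove adenosine: Adora1, Adora2a, Adora2b, Adora3, Nt5e, Adk, Ada, Entpd1 and Entpd2. They were chosen by name, as the rows of the count table whose Ensembl identifier carried one of these symbols, and they are 9 of the 55573 genes in that table. RNA was sequenced from the spinal dorsal horn (DHSC) on the side of the injected paw of adult C57Bl/6 mice 2 h after 2% formalin had been injected into a hindpaw. There were 6 males, 6 females of the F1/proestrus group and 6 females of the F2/metestrus group, all injected, and no group of naive mice was sequenced. F1 and F2 are the names given to females with a short and a long quiet period between the phases of the formalin response, so that behaviour and stage of the estrus cycle cannot be told apart between the 2 female groups.

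Adenosine is made outside cells from the ATP that neurons and glia release. Entpd1 and Entpd2 encode surface enzymes that remove phosphates from ATP, with Entpd2 known to prefer ATP over ADP, and Nt5e encodes the surface enzyme that turns the resulting AMP into adenosine. Inside cells, the kinase encoded by Adk turns adenosine back into AMP and the deaminase encoded by Ada turns it into inosine. The receptors encoded by Adora1 and Adora3 couple to inhibitory G proteins and those encoded by Adora2a and Adora2b to stimulatory ones, and activation of the Adora1 receptor in the dorsal horn is known to dampen the transmission of pain.

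Positions are those of the GRCm38 genome. Adora1 was at chromosome 1, 134199223 to 134235431, on the minus strand, Adora2a at chromosome 10, 75316877 to 75334784, Adora2b at chromosome 11, 62248984 to 62266453, and Adora3 at chromosome 3, 105870858 to 105908926. Among the enzymes, Entpd1 was at chromosome 19, 40612366 to 40741602, Entpd2 at chromosome 2, 25395874 to 25401321, Nt5e at chromosome 9, 88327197 to 88372092, Adk at chromosome 14, 21052574 to 21448569, and Ada at chromosome 2, 163726584 to 163750239, on the minus strand. Exons of 3 of them shared bases with exons of another gene: Adora1 shared 1162 bases with Mybph on the opposite strand, Adora3 shared 779 bases with Tmigd3 on the same strand, and Entpd2 shared 612 bases with Npdc1 on the same strand. Because the strand setting of the counting and its handling of shared reads were not given in the sources used here, reads in those stretches may have been split or dropped, and the values of these 3 genes are uncertain to that degree.

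To set the receptors with the highest and the lowest levels beside their start sites, the 250 bases before the RefSeq start are shown for Adora1, Adora2b and Adora3 (RefSeq, GRCm38.p6, 5′ to 3′ on the strand of the gene), with each CG in capitals. RefSeq promoters were matched for 8 of the 9 genes, and Adora2a was not matched. The Adora1 stretch, of the farther upstream of its pair of starts, is chr1:134235458-134235707 on the minus strand, that of Adora2b is chr11:62248734-62248983 on the plus strand and that of Adora3 is chr3:105904171-105904420 on the plus strand.
Adora1: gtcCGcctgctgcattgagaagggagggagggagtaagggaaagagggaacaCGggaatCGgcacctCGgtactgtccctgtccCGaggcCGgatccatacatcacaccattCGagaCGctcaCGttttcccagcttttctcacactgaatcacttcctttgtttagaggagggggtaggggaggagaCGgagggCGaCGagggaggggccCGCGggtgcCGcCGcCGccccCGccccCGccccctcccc
Adora2b: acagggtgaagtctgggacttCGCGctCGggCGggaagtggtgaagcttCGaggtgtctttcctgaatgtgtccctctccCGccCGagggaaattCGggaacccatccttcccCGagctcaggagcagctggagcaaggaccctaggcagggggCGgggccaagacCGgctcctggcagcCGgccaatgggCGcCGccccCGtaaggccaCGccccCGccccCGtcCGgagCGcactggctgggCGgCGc
Adora3: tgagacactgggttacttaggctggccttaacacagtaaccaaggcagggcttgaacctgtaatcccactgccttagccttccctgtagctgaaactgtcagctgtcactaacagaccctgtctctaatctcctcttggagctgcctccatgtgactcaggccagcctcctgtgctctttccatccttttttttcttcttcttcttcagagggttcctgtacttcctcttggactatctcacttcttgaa
The Adora1 stretch held 19 CG, the Adora2b stretch 22 and the Adora3 stretch 0. Among 32851 promoter stretches of this length in the table the median was 6 CG, 19.7% held 19 or more, 14.8% held 22 or more, and 7.87% held none. The other matched members held between 8 and 24 CG in each of their starts. In descending order of mean level per exon length, given below, Entpd2 held 9, Adk 15 and 24, Ada 14, Entpd1 18 and 8, and Nt5e 21. The counts of these 5 enzymes thus did not fall with their levels, and a link between CG and level was not tested. CG reads the same on both strands, so the count is that of either strand.

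Each sample held between 73590509 and 125724156 counts in genes, and 3 counts were worth between 0.0240 and 0.0407 CPM (counts scaled to a fixed library total, corrected by trimmed mean of M-values). Markers of dorsal horn neurons were read in every sample, with Penk at 261 CPM or more and Sst at 75.6 CPM or more in the 17 samples other than F1/proestrus 5. Markers of motor neurons, which lie outside the dorsal horn, summed to between 16.0 and 132 CPM. The numbers of the libraries in the header of the count table ran from 27 to 35 for replicates 1 to 3 of every group and from 188 to 196 for replicates 4 to 6. F1/proestrus 5 stood apart: 6 markers of sensory ganglion neurons summed to 331 CPM in it and to between 1.57 and 2.86 CPM in the other 17 samples. Values without this sample stand beside those of Nt5e, Adora2a, Adora3, Adk and Entpd2 that it moved.

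The levels of the 9 genes spanned a wide range, and their order was nearly the same in every sample. On the TPM scale, which divides counts by exon length before scaling each sample to the same sum and so allows genes to be compared, Adora1 was the highest at 140 ± 5.70 (SD, n = 18). Entpd2 followed at 54.0 ± 5.47, Adk at 42.3 ± 2.93 and Adora2b at 24.6 ± 2.13. Ada was at 9.90 ± 1.52, Entpd1 at 6.41 ± 0.799, Nt5e at 3.05 ± 0.740, Adora2a at 1.92 ± 0.435 and Adora3 at 0.275 ± 0.0859. The ranges of neighbours in this order did not overlap, except for Entpd2 and Adk, Ada and Entpd1, and Nt5e and Adora2a. Within a sample, Entpd2 was above Adk in 18 of 18, Ada above Entpd1 in 17 of 18 and Nt5e above Adora2a in 17 of 18. The order of Entpd2 and Adk rested on the gene length used: with the length of the longest transcript in place of all exons, Adk was at 69.0 TPM and Entpd2 at 48.2 TPM.

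**Figure D1:**
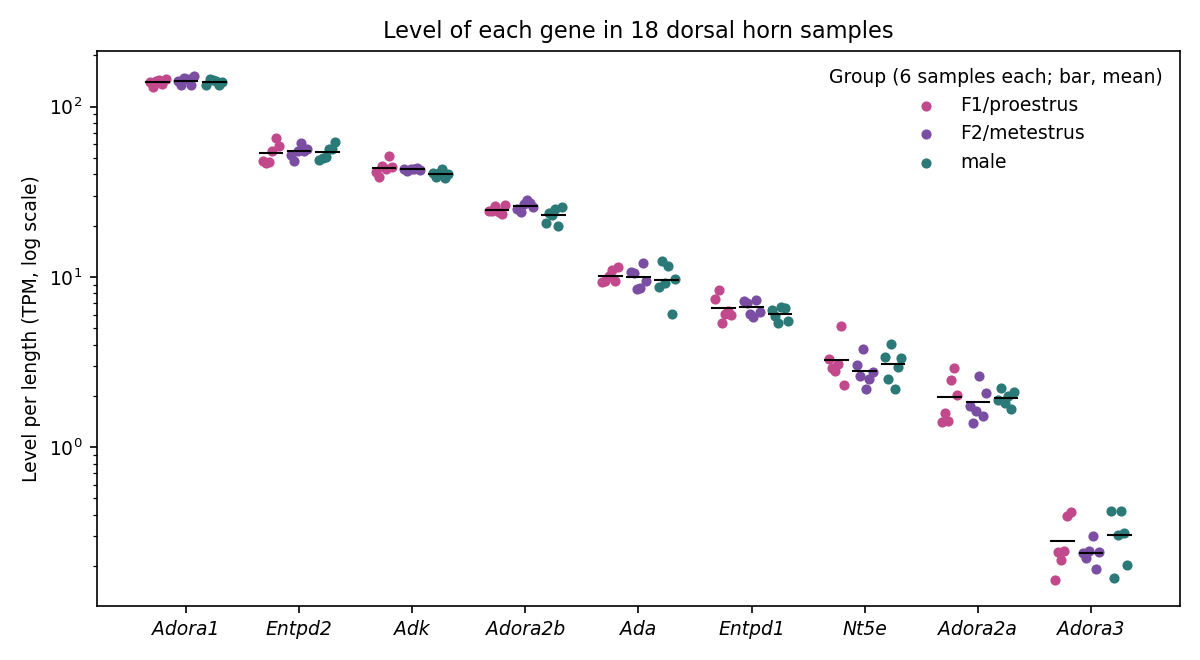
Level per exon length (TPM, log scale) of the 9 genes in order of their mean, with 1 point for each of the 18 samples and a bar at the mean of each group of 6. Adora1 was the highest of the 9 in every sample and Adora3 the lowest, and the points of the 3 groups overlapped for every gene.

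Among the receptors, Adora1 made up 84.0 ± 0.975% of the summed TPM (SD, n = 18) and Adora2b 14.7 ± 1.01%. Adora2a was 1.15 ± 0.249% and Adora3 0.165 ± 0.0529% of this sum. The receptors that couple to stimulatory G proteins were thus unequal, with Adora2b at 13.4 ± 3.04 times the TPM of Adora2a. Adora3 was read by only 19 to 65 counts in a sample, so that counting alone gave a coefficient of variation of 17.04% beside the 32.1% seen. Tmigd3, which shares exon bases with it, had 8 to 38 counts.

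Among those of the 9 genes whose enzymes act on the cell surface, Entpd2 was at 8.57 ± 1.48 times the TPM of Entpd1 and at 18.6 ± 4.49 times that of Nt5e. The second ratio rested on the length used and was 9.48 with the longest transcript, while the first was 7.13. Outside the 9 genes, the surface enzymes Entpd3 and Alpl were at 57.6 ± 6.21 and 16.5 ± 1.05 TPM (SD, n = 18), so Entpd2 was not the only such enzyme at this level. Inside the cell, the kinase Adk was at 4.37 ± 0.739 times the TPM of the deaminase Ada, and at 7.41 times with the longest transcript. With all exons this ratio was 3.11 in male 2 and 6.32 in male 5, the lowest and the highest of the 18 samples, and Ada was highest in the first (8.17 CPM) and lowest in the second (4.18 CPM).

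The genes differed in how much they varied between samples. The coefficient of variation of CPM over the 18 samples was 5.03% for Adora1 and 7.48% for Adk. It was 9.31% for Adora2b, 11.2% for Entpd1, 12.0% for Entpd2 and 15.5% for Ada. Adora2a varied by 23.9% and Nt5e by 24.0%, of which counting alone would give 7.10% and 3.34%. Without F1/proestrus 5 these were 21.3% for Adora2a and 17.8% for Nt5e, and that of Adk was 5.56%. Nt5e thus varied between samples by more than counting alone gives, and by more than Adora2b and Entpd1, whose median counts were higher (1569.5 and 1141 against 803). Ada, with a median of 670 counts, varied by 15.9% without F1/proestrus 5, close to the 17.8% of Nt5e.

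The study asked whether the DHSC of males and females differed after formalin, with the females taken as a single condition. None of the 9 genes passed a false discovery rate (FDR) of 5% by edgeR's quasi-likelihood test (0 of 9), where 0.197% of the 24862 genes tested did, and none reached an unadjusted p under 0.05. The DESeq2 test called 0 of 9 as well, with Adora2b alone under 0.05 before adjustment (DESeq2 adjusted p = 0.457). Because the tissue was not separated into cells, fewer cells of a type and less RNA per cell cannot be told apart in any of these values.

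Adora1 was at 258 CPM in the lowest male, 275 at the median and 279 in the highest, against 237, 271 and 290 in the females. The male range lay within that of the females. The log2 fold change of males over females was 0.01 (SE 0.04), with a 95% interval from -0.08 to 0.10, so that a difference larger than 1.07-fold in either direction lay outside the interval.

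Adora2b had the smallest p of the 9. Its CPM was 12.6 at the lowest, 14.2 at the median and 16.4 at the highest in males, and 14.1, 15.5 and 18.05 in females. Males reached lower values, and the groups overlapped. The log2 fold change was -0.13 (SE 0.07; 95% interval -0.26 to 0.01; edgeR adjusted p = 0.538). It was -0.15 within replicates 1 to 3 and -0.11 within replicates 4 to 6.

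Adora2a was at 1.77, 1.99 and 2.25 CPM in males (lowest, median and highest) and at 1.38, 1.68 and 2.98 in females, so that the males lay inside the spread of the females. Its log2 fold change was 0.06 (SE 0.16; 95% interval -0.28 to 0.39) over all samples and 0.13 without F1/proestrus 5. The direction was not the same in the library series: 0.38 within replicates 1 to 3 (edgeR adjusted p = 0.478) and -0.21 within replicates 4 to 6 (edgeR adjusted p = 0.701). The interaction of sex and series was -0.61 on the log2 scale (SE 0.23; edgeR adjusted p = 0.964) and did not pass the threshold. No gene of the table passed it for this interaction (0.0% of 24862), with 1235 genes at an unadjusted p under 0.05.

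Adora3 was at 0.208, 0.389 and 0.529 CPM in males and at 0.200, 0.296 and 0.525 in females, with a log2 fold change of 0.24 whose 95% interval ran from -0.22 to 0.71, and 0.32 without F1/proestrus 5. At 19 to 65 counts, a change of up to 1.63-fold was not excluded by this interval.

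The enzymes gave log2 fold changes close to 0. That of Nt5e was 0.04 (95% interval -0.27 to 0.36), and 0.14 (-0.10 to 0.38) without F1/proestrus 5. That of Entpd2, the more abundant of the surface ATP-degrading enzymes among the 9 genes, was 0.03 (-0.14 to 0.20), and 0.06 without that sample. Entpd1, the other of these enzymes among the 9 genes, was at -0.09 (-0.26 to 0.07). The values were -0.08 for Adk (-0.19 to 0.03; -0.05 without F1/proestrus 5) and -0.04 for Ada (-0.27 to 0.20). Over the 9 genes the median log2 fold change was 0.01, with 5 above 0 and 4 below, and over all genes tested it was 0.00. Summed markers of dorsal horn neurons were between 591 and 855 CPM in males and between 426 and 662 CPM in females, those of microglia 445 to 519 and 388 to 474 CPM, and those of Schwann cells 894 to 2193 and 598 to 1214 CPM. By edgeR, 2 of 7, 0 of 10 and 1 of 6 of these markers were called higher in males. Other marker lists went either way. The means in males and females were 4464 and 4555 CPM for neurons, 3640 and 3721 CPM for astrocytes, and 359 and 310 CPM for meningeal fibroblasts. The part of these differences in the values of the 9 genes was not tested.

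**Figure D2:**
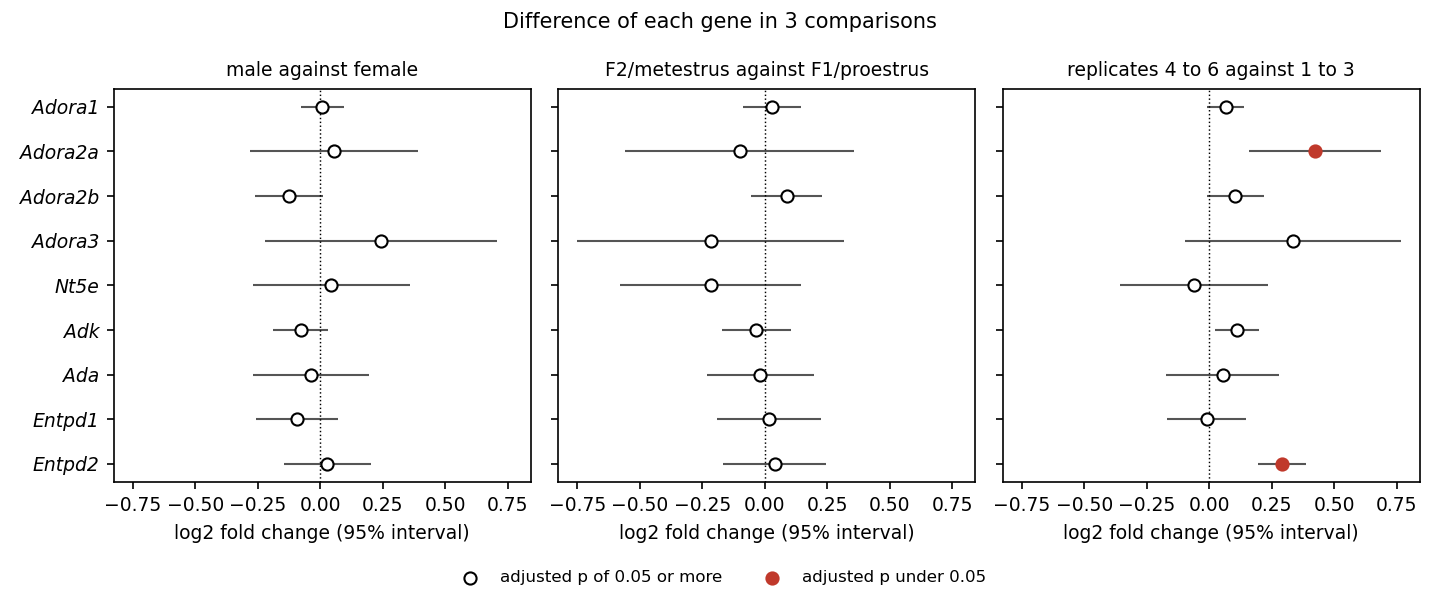
Log2 fold change of each gene (point) with its 95% interval (line) by edgeR's quasi-likelihood test in 3 comparisons: males over females, F2/metestrus over F1/proestrus, and replicates 4 to 6 over replicates 1 to 3. Every interval in the first 2 panels includes 0, and the filled points, with an adjusted p under 0.05, are Adora2a at 0.42 and Entpd2 at 0.29 in the third panel.

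The second question was whether the females of the 2 groups differed. Of the 9 genes, 0 passed the FDR of 5% in F2/metestrus against F1/proestrus by edgeR, where 0.0% of the 24042 genes tested did, and 0 of the 9 reached an unadjusted p under 0.05, against 596 genes of the table. DESeq2 called 2 genes of the table and 0 of the 9.

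Nt5e, which makes adenosine from AMP, had the most negative value. It was at 6.78 CPM in the lowest, 8.46 at the median and 14.8 in the highest F1/proestrus sample, and at 6.48, 7.55 and 10.6 in the F2/metestrus samples. Its log2 fold change was -0.22 (SE 0.17; 95% interval -0.58 to 0.14; edgeR adjusted p = 1), and -0.03 without F1/proestrus 5, the sample with 14.8 CPM. Leaving out each of the 12 samples in turn gave -0.31 to -0.03. Within replicates 1 to 3 the value was 0.07, and within replicates 4 to 6, which hold F1/proestrus 5, it was -0.51.

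Adora3 had a like value, -0.22 (95% interval -0.75 to 0.32), on 19 to 56 counts, and -0.08 without F1/proestrus 5. Adora2a was at -0.10 (-0.56 to 0.36) and at 0.05 without F1/proestrus 5. Adora2b was at 0.09 (-0.05 to 0.23), with 14.1 to 16.6 CPM in F1/proestrus and 14.4 to 18.05 CPM in F2/metestrus.

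Adora1 was at 267 ± 17.5 CPM in F1/proestrus and 273 ± 15.5 in F2/metestrus (SD, n = 6 each), a log2 fold change of 0.03 (-0.09 to 0.14). The 4 remaining enzymes were between -0.03 for Adk and 0.04 for Entpd2, and without F1/proestrus 5 between -0.03 for Ada and 0.11 for Entpd2. Adk, the kinase, spread more among the F1/proestrus samples (104 to 145 CPM) than among the F2/metestrus samples (117 to 126 CPM), and F1/proestrus 5 was the highest. Without it the F1/proestrus samples lay between 104 and 128 CPM.

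Between the library series, 2 of the 9 genes passed the FDR of 5% in a fit with the group as a term: Entpd2 and Adora2a, both higher in replicates 4 to 6. Here 27.0% of the 24862 genes tested were called, 3475 of them as higher in replicates 4 to 6 and 3234 as lower, so the count for the 9 genes is near the background.

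Entpd2 was at 33.4, 31.4 and 33.1 CPM in F1/proestrus 1 to 3 and at 39.2, 46.0 and 42.2 CPM in F1/proestrus 4 to 6. In F2/metestrus it was at 36.7, 33.1 and 38.1 CPM and then at 45.1, 39.5 and 39.5 CPM. In males it was at 34.4, 35.1 and 35.5 CPM and then at 40.8, 41.4 and 46.0 CPM. The lowest of replicates 4 to 6 (39.2) was above the highest of replicates 1 to 3 (38.1), so the series did not overlap within any group or over all 18 samples. Within a group each series held only 3 samples, and the share of all genes whose series did not overlap was not counted. The ratio of the series means was 1.302 in F1/proestrus, 1.15 in F2/metestrus and 1.22 in males. The log2 fold change was 0.29 (SE 0.05; 95% interval 0.20 to 0.38; edgeR adjusted p = 9.48e-05), or 0.27 without F1/proestrus 5 (edgeR adjusted p = 0.000146), and in TPM the means were 49.6 ± 2.66 and 58.4 ± 3.60 (SD, n = 9 each).

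Npdc1, the neighbour that shares 612 exon bases with Entpd2 on the same strand, moved alike: 180 to 209 CPM in replicates 1 to 3 and 211 to 254 CPM in replicates 4 to 6 (log2 fold change 0.25, SE 0.04, edgeR adjusted p = 6.00e-05). With reads in the shared bases, the 2 genes cannot be told apart there.

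Adora2a was at 1.68 ± 0.282 CPM in replicates 1 to 3 and at 2.24 ± 0.457 in replicates 4 to 6 (SD, n = 9 each), with a log2 fold change of 0.42 (SE 0.13; 95% interval 0.16 to 0.69; edgeR adjusted p = 0.0167). The series did not overlap in F1/proestrus, with 1.41, 1.53 and 1.44 CPM against 2.55, 2.98 and 2.10 CPM. They overlapped in F2/metestrus, with 1.75, 1.38 and 1.61 against 2.78, 1.57 and 2.11 CPM. In males the means were nearly equal, at 2.00 and 2.03 CPM. Without F1/proestrus 5 the log2 fold change was 0.36 (edgeR adjusted p = 0.0292). Adora3, which was not called, also had series that did not overlap in F1/proestrus, at 0.200 to 0.285 against 0.308 to 0.525 CPM. This rested on 22 to 56 counts, and in F2/metestrus and males the Adora3 series overlapped, with a ratio of the means of 1.075 in each. Within a group each series held only 3 samples, and the share of all genes that separate in F1/proestrus was not counted. Nothing particular to Adora2a or Adora3 is read from these separations.

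**Figure D3:**
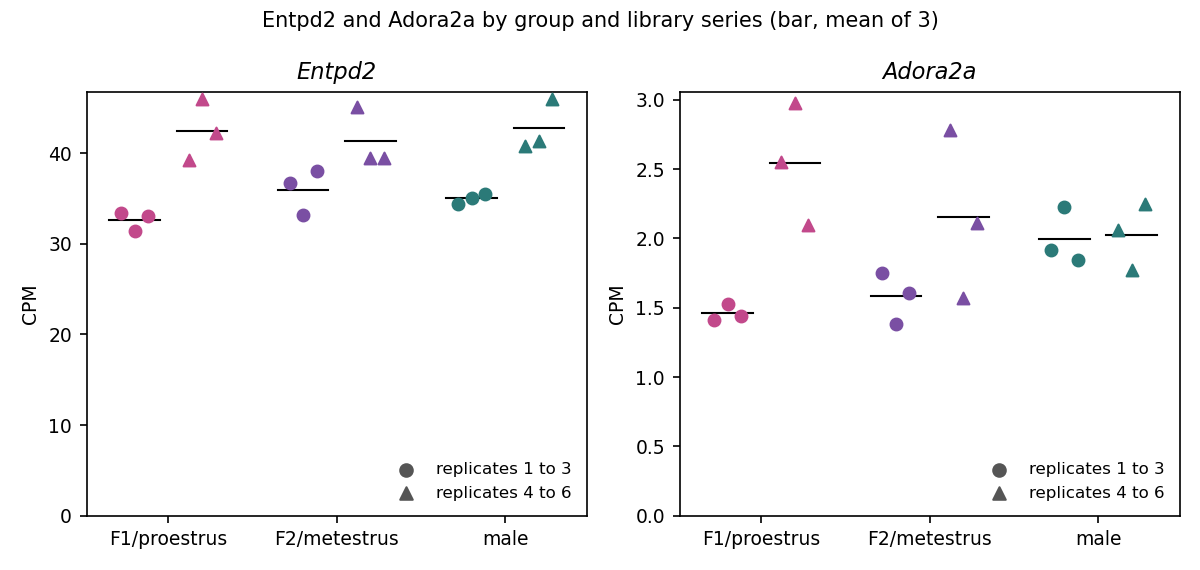
CPM of Entpd2 and Adora2a in each of the 18 samples by group, with circles for replicates 1 to 3, triangles for replicates 4 to 6 and a bar at the mean of each 3. For Entpd2 all triangles (39.2 to 46.0) lie above all circles (31.4 to 38.1), while for Adora2a the series separate in F1/proestrus and overlap in F2/metestrus and males.

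Adk was at 115 ± 6.44 CPM in replicates 1 to 3 and 125 ± 9.02 in replicates 4 to 6, a log2 fold change of 0.11 (SE 0.04) that missed the threshold (edgeR adjusted p = 0.0560) and passed it under 8 of 22 alternatives. Without F1/proestrus 5 it was 0.08 (edgeR adjusted p = 0.0930). The other 6 genes had adjusted p-values of 0.173 or more, and Nt5e moved from -0.06 to -0.19 (edgeR adjusted p = 0.203) without that sample. Between the series, 7 of 10 microglial markers were called higher and 1 lower in replicates 4 to 6, and 5 of 7 dorsal horn neuron markers were called higher. Over all genes tested, 27.0% were called in this comparison. Other marker lists went differently. Of 6 neuron markers 1 was called higher, of 6 endothelial markers 1 was called higher and 2 lower, and of 7 astrocyte markers 1 was called lower. Summed microglial markers were 388 to 475 CPM in replicates 1 to 3 and 426 to 519 CPM in replicates 4 to 6. Their part in the difference of Entpd2 and Adora2a was not tested, and what the library numbers stand for was not given in the sources used here.

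F1/proestrus 5 was the highest of all 18 samples for 4 of the 9 genes. Nt5e was at 14.8 CPM in it and at 6.38 to 11.6 CPM in the other 17 samples, and Adk at 145 CPM against 104 to 128 CPM. For Adora2a (2.98 against at most 2.78 CPM) and for Entpd2 (46.02 against at most 45.99 CPM) the margin was small. The 5 others lay inside the range of the other samples, with Adora1 at 263 CPM ranking 14 of 18 and Adora2b at 14.4 CPM ranking 13 of 18. On the list of 48 further pathway genes described below, this sample was the highest for Entpd3, Acpp, Ampd3 and P2ry1. The share of all genes for which it was the highest was not counted, so nothing particular to the 9 genes is read from this.

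The same sample stood apart in its markers of sensory ganglion neurons. Scn10a, a sodium channel of these neurons, was at 125 CPM against at most 0.153 CPM elsewhere, Avil at 132 against at most 0.903, and Trpv1 at 32.2 against at most 0.356. Of the other 3 markers, Mrgprd was at 32.9 CPM against at most 0.0445, Fam19a4 at 8.34 against at most 1.85, and Mrgprx1 at 0.324 against 0. Acpp, the acid phosphatase that can also make adenosine from AMP on sensory neurons, was at 58.9 CPM in this sample and at 0.329 to 1.80 CPM in the others. Entpd3, a further surface ATP-degrading enzyme, was at 93.0 CPM against 58.5 to 78.3 CPM. Markers of meningeal fibroblasts summed to 486 CPM in this sample, the highest of the 18, against 220 to 471 CPM in the others. Those of Schwann cells summed to 1214 CPM, the highest of the 12 females, with 598 to 2193 CPM in the other 17 samples. The part of RNA from any of these cell types in the high values of Nt5e, Adk and Adora2a was not tested. Acpp and Entpd3 were singled out after their values were seen.

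**Figure D4:**
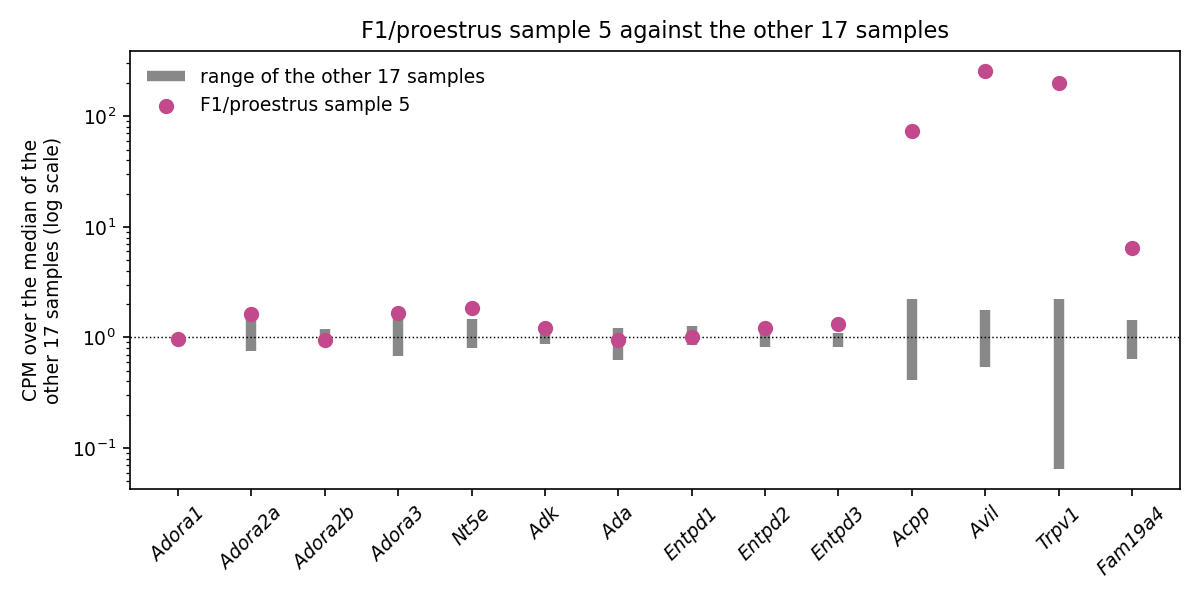
CPM of F1/proestrus 5 (point) and the range of the other 17 samples (grey bar), each divided by the median of those 17 samples, on a log scale, for the 9 genes, Entpd3, Acpp and 3 sensory ganglion markers. Nt5e (14.8 against at most 11.6 CPM), Adk (145 against at most 128 CPM) and Entpd3 (93.0 against at most 78.3 CPM) lie above the grey range, Adora2a and Entpd2 lie just above it, Acpp at 58.9 CPM lies far above its range of 0.329 to 1.80 CPM, and Adora1, Adora2b, Adora3, Ada and Entpd1 lie inside theirs.

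Other genes of the same pathway were described from a list of 48, of which 43 passed the filter on low counts. They comprised surface phosphatases, intracellular enzymes of the Entpd family, cytosolic and mitochondrial nucleotidases, nucleoside transporters, enzymes of AMP and adenosine metabolism, and P2Y receptors for nucleotides. The 5 with the highest level per length were Hprt (421 ± 42.3 TPM, n = 18), which salvages hypoxanthine, Enpp2 (334 ± 32.5), which encodes autotaxin, the adenylate kinases Ak1 (122 ± 9.92) and Ak5 (82.9 ± 4.89), and the AMP deaminase Ampd2 (87.1 ± 6.94). Hprt and Enpp2 were above Adora1 on this scale, and Ak1, Ampd2 and Ak5 lay between Adora1 and Entpd2.

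In males against females, 0 of the 43 genes passed the FDR of 5% by edgeR and 8 reached an unadjusted p under 0.05. Over the 24862 genes tested, 0.197% passed and 2416 genes reached an unadjusted p under 0.05. The median log2 fold change of the 43 genes was -0.03, and that of all genes tested 0.00. The lowest adjusted p was that of P2ry1, a receptor for ADP, which was at 19.4 to 25.6 CPM in males and 25.3 to 34.2 CPM in females, so that the groups overlapped between 25.3 and 25.6 CPM. Its log2 fold change was -0.34 (SE 0.07; edgeR adjusted p = 0.0548), the same within replicates 1 to 3 (-0.34) and close to it within replicates 4 to 6 (-0.35). P2ry1 passed the threshold under DESeq2 (adjusted p = 0.00255) and with the library series as a covariate (edgeR adjusted p = 0.0184). It was not called under 23 of 31 alternatives, among them the main fit without F1/proestrus 5. The highest female value, 34.2 CPM, was that of F1/proestrus 5, and the other 17 samples reached at most 32.3 CPM. P2ry1 was singled out after its values were seen.

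Acpp had the largest difference of the list, with a log2 fold change of -3.43 (SE 1.17; edgeR adjusted p = 0.328). Without F1/proestrus 5 it was -0.88 (SE 0.20; edgeR adjusted p = 0.0784). Acpp lay between 0.329 and 0.739 CPM in males and between 0.645 and 1.80 CPM in the females other than F1/proestrus 5. In F2/metestrus against F1/proestrus 0 of the 43 genes passed, and 2 reached an unadjusted p under 0.05. Over the 24042 genes tested, 0.0% passed and 596 genes reached an unadjusted p under 0.05.

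Between the library series, 13 of the 43 genes passed by edgeR, 8 of them higher and 5 lower in replicates 4 to 6. The higher ones included Ahcy (log2 fold change 0.35), which releases adenosine from S-adenosylhomocysteine, Aprt (0.26), Nt5c (0.21), Ak1 (0.20), Nt5c3b (0.16), Pnp (0.16) and Nt5m (0.11). The lower ones were Entpd4b (-0.37), Nt5c1a (-0.37), a cytosolic enzyme that makes adenosine from AMP, Enpp1 (-0.29), Entpd5 (-0.18) and the nucleoside transporter Slc29a3 (-0.15). By list, 5 of 14 genes of AMP and adenosine metabolism were called higher and 0 lower, with a median log2 fold change of -0.01 over the list. Of the nucleotidases, 3 of 6 were called higher and 1 lower, and of the intracellular Entpd genes 2 of 5 were called lower. Among the surface enzymes and the transporters 1 of 6 each was called lower, and among the P2Y receptors 0 of 6 were called. With 27.0% of all genes called, nothing particular to a list is read from these counts.

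The genes whose levels went most alike with each of the 9 were taken by Spearman's correlation over the 18 samples, after the mean of each library series had been subtracted, among 17765 genes of at least 1 CPM. These correlations share libraries and normalization and are given as a description. For Adora1 they included Rab7-ps1 (0.907) and Aplp1 (0.880), and for Adora2b Gm12097 (0.839) and Btbd9 (0.787). For Adora2a they were Gm16499 (0.889), Gm29254 (0.887) and Camta2 (0.872), and for Adora3 Gm26752 (0.808), Sae1 (0.798) and Ripk2 (0.767). For Nt5e they were Gm1848 (0.773), Atp1b3 (0.748) and Klf3 (0.742), for Adk Ppp1r2-ps4 (0.895), Hspb8 (0.870) and Anxa5 (0.818), and for Ada 4732471J01Rik (0.808), Ggt5 (0.796) and Gm25082 (0.771). Those of Entpd1 were Smc5 (0.882), Gm11408 (0.878) and Trp53inp1 (0.872), and those of Entpd2 were Gm42928 (0.905), AA986860 (0.823) and Npdc1 (0.818). None of the 9 was among the 3 nearest genes of another. Adora3, at a mean of 0.342 CPM, was under the limit of 1 CPM and could not have been listed for another gene. Npdc1 is the gene that shares exon bases with Entpd2.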

How the data were processed

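RNA-Seq of 18 ipsilateral DHSC samples was analysed. The authors deposited whole-number exon counts per gene and sample. Per the submitters' processing notes, reads were demultiplexed with bcl2fastq 2.20.0.422, mapped to mm10 with Subread 2.0.3 and counted with featureCounts. The methods name a TruSeq kit and the labels SMART-Seq v4 with Nextera XT, so the kit is uncertain. A second table that the authors deposited pairs Ensembl identifiers with symbols beside a DESeq2-normalized mean signal, fold changes and p-values. It was used for symbols only.

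Counts were tested with edgeR 4.0.16 (quasi-likelihood test, TMM, filterByExpr with minimum counts of 10 and 15 in total, Benjamini-Hochberg over all genes tested, FDR 5%) in R 4.3.3. SE is the absolute log2 fold change over the square root of F. Fits were tested on simulated data first. TPM used union exon lengths of GENCODE (GRCm38). DESeq2 1.42.0 and limma 3.58.1 (voom with quality weights) were alternatives, beside other normalization, filters, covariates and samples left out. Groups came from the sample titles. The methods give 6 samples a group and call the samples biological replicates. No 2 samples were identical.

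The members and lists were chosen with earlier results of these data known. Named were all members, pathway genes past the threshold or among the 5 highest in TPM, and the 3 genes most like each member. Some genes that this rule names are not reported here.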

Additional observations from a re-analysis of the deposited data

Results flagged for a closer look

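Nt5e stood out in F1/proestrus 5, at 14.8 CPM, while the other 5 samples of that group lay between 6.78 and 9.27 CPM. The gap to the nearest sample was 0.689 of the range of the group, above Dixon's 95% critical value of 0.625 for 6 samples. This was the only such sample among 27 combinations of gene and group, where chance gives about 1 in 20. The same sample held 331 CPM of summed sensory ganglion markers and the highest sum of meningeal fibroblast markers (486 CPM), and their part in the value of Nt5e was not tested.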

How the results depend on the processing

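For the 9 genes, 0 calls were made in males against females under 31 alternatives and 0 in F2/metestrus against F1/proestrus under 23, with lowest adjusted p-values of 0.252 and 0.864. The sign of these uncalled values changed in 21 of 279 and 22 of 207 refits. Between the library series, Entpd2 and Adora2a passed under all 22 alternatives, and Adk passed under 8 of them, DESeq2 among these (adjusted p = 0.0429). With the length of the longest transcript, mean TPM moved to 132.7 for Adora1, 48.2 for Entpd2, 69.0 for Adk, 19.98 for Adora2b and 5.33 for Nt5e. This choice changes the length of a gene and also the sum to which each sample is scaled. The length of Adora2b was 1845 bases either way, so its value moved through the sum alone. For the 43 pathway genes in males against females, the count of 0 became 3 under DESeq2 (P2ry1, Acpp and Enpp2), 2 with the library series as a covariate (P2ry1 and Enpp1), 2 with that covariate and without F1/proestrus 5, an alternative chosen after seeing the data, and 0 to 1 when samples were left out. P2ry1 was called without F1/proestrus 3, F1/proestrus 6, F2/metestrus 5 or male 1. The cause was not tested.

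The count over all genes in males against females, 49, became 167 under DESeq2, 134 with the series covariate, 177 with it and without F1/proestrus 5, 31 with at least 10 counts in every sample, 16 and 13 within replicates 1 to 3 and 4 to 6, and 13 and 22 against F1/proestrus or F2/metestrus alone, the last 4 with fewer samples. It ran from 25 (without male 5) to 77 (without F1/proestrus 5) when samples were left out, with 30 without male 4. DESeq2 called 2 genes in F2/metestrus against F1/proestrus in place of 0. With the replicate number as a block, 0 of the 9 genes, 1 pathway gene (P2ry1, edgeR adjusted p = 0.0206) and 148 genes in all were called in males against females, and 0 in the female comparison. The labels do not say that a number marks a shared litter or day: deviations of same-numbered samples correlated between -0.105 and 0.228 over 18 pairs, 9 of them over 0.1, and 7 of 18 samples correlated best with their own number. These deviations were taken from the group mean, and same-numbered samples share a library series. Taken from the mean of each series within its group, they correlated between -0.111 and 0.132. Depth limits Adora3 most, at 19 to 65 counts.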
